A study of Mus musculus with 7 samples.

Results

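The cells described here are the E-cadherin-negative cells sorted from blood, called BEneg here and BEn in the labels, which list them as circulating tumour cells. They were taken as the wells whose names start with BEn in 4 single-cell libraries and that hold at least 500 transcripts, summed over every row except the spike-ins. Of 96 such wells, 60 met that rule: 18 in library 1, 18 in library 2, 11 in library 3 and 13 in library 4. They are 60 of the 220 wells that met it in the experiment. The wells just inside the threshold held 516, 520 and 525 transcripts, and those just outside held 489, 487 and 479.

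The study took breast tumours from PyMT mice, which carry the polyomavirus middle T antigen as an oncogene in the mammary gland, sorted single cells on the epithelial adhesion protein E-cadherin (gene Cdh1), and sequenced them with CEL-seq, which counts each captured transcript near its 3′ end so that gene length does not enter the level. The other populations used here for comparison were E-cadherin-positive cells of the solid tumour (TEpos, 71 wells), E-cadherin-negative cells of the solid tumour (TEneg, 69 wells) and E-cadherin-positive cells from blood (BEpos, 20 wells, library 1). The labels name no agent, time point, age, animal or promoter, and no removal of leukocytes. Each library held BEneg, TEpos and TEneg wells side by side, and nothing says that the 4 libraries came from separate mice, so the spread behind each p-value is that between libraries and may be technical. Another experiment of the series, on E-cadherin-positive tumour cells alone, was not used here.

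The used BEneg wells held a median of 819 transcripts (516 to 3654), against 2064 in TEpos, 1603 in TEneg and 3803 in BEpos. The BEneg sums per library were 24557, 25379, 11877 and 11172 transcripts. The same 24 cell barcodes, of 8 bases, served the BEneg wells in each of the 4 libraries. One TEneg well of library 2 held 61227 transcripts, and counts of genes were also made without it. Levels below are transcripts per 10000 of the library's BEneg sum, as mean ± SD over 4 libraries unless another base is named.

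Neutrophils and classical monocytes are phagocytes that leave the bone marrow for the blood, and neutrophils are known to accumulate there in mice with mammary tumours. Neutrophils are marked by very high S100a8 and S100a9, which form the calcium-binding alarmin calprotectin, by the secreted protein Retnlg and by granule and protease genes such as Mmp9. Classical mouse monocytes carry the chemokine receptor Ccr2, the surface antigen Ly6c2 and much lysozyme (Lyz2). Both use Tyrobp, an adaptor through which activating receptors signal.

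S100a8 (chr3:90669071-90670034, plus strand) and S100a9 (chr3:90692630-90695721, minus strand) lie close together on mouse chromosome 3, and Retnlg (chr16:48872608-48874498, plus strand) on chromosome 16, in the RefSeq annotation of GRCm38.p6. These genes led the larger group of BEneg wells, so the 250 bases before each annotated start are shown, 5′ to 3′ on the strand of the gene, from RefSeq. The windows are chr3:90668821-90669070 for S100a8, chr3:90695722-90695971 for S100a9 and chr16:48872358-48872607 for Retnlg. Capitals mark matches, on either strand, to TTGCNNAA (a simple form of the motif of the C/EBP factors of granulocytes) and to GAGGAA (the core letters of the myeloid factor PU.1).
S100a8: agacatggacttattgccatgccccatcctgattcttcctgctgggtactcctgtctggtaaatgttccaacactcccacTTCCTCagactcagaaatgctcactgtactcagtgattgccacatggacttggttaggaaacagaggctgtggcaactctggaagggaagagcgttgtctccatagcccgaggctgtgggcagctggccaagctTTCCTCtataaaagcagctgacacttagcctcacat
S100a9: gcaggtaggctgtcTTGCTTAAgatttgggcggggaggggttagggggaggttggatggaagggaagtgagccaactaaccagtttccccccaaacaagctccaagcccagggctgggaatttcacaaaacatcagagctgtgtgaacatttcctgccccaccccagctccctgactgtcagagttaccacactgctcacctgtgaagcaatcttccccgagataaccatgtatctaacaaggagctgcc
Retnlg: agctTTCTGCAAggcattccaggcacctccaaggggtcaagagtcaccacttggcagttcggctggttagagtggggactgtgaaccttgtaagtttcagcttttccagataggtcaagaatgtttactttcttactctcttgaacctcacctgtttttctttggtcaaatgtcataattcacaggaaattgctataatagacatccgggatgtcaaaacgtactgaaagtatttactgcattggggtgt
The S100a8 window held 2 matches to GAGGAA and 0 to TTGCNNAA. The S100a9 and Retnlg windows each held 1 match to TTGCNNAA and 0 to GAGGAA. Among 32536 upstream windows of this length in the same table, 9.57% held TTGCNNAA and 23.4% held GAGGAA. A match describes letters and is not evidence of a bound factor.

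S100a9 and S100a8 were the most abundant genes of the BEneg wells once ribosomal protein genes were set aside. S100a9 stood at 424, 466, 192 and 314 in libraries 1 to 4 (349 ± 123, n = 4), and S100a8 at 433, 423, 185 and 243. Library 3 was lowest for both, and every library stood far above the TEpos mean of 12.5 for S100a9. Next came Tmsb4x, an actin-binding peptide abundant in leukocytes (187), the lysozyme gene Lyz1 (144), and the actin gene Actb (101). Retnlg reached 80.1, 103, 47.8 and 61.0, and Lyz2 reached 64.0, 57.1, 58.6 and 108. Lyz1 and Lyz2 are near-identical copies, so the split of reads between them is uncertain. Tyrobp stood at 53.7, 44.1, 31.4 and 34.3. The other genes among the 20 most abundant ran from Ptma (49.5) to Wfdc17 (30.5). They were the calcium-binding S100a6 and S100a11, ferritin (Ftl1), Eef1a1, B2m, Actg1, Tpt1, the peroxidase Gpx1, the histone gene H3f3a and the iron-scavenger lipocalin Lcn2.

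All 5 markers by which these cells were proposed were present, although the labels list the wells as tumour cells. S100a9 was found in 60 of 60 wells, S100a8 in 58, Tyrobp in 57, Retnlg in 45 and Lyz2 in 40. Transcripts of S100a9 were also found in 87.3% of TEpos wells, sorted as E-cadherin-positive, at a median of 2 transcripts against 29 in BEneg. With every well thinned to 500 transcripts, S100a9 was found in 52.1% of TEpos and 88.3% of BEneg wells. Retnlg was found in 75.0% of BEneg wells (95% exact binomial interval 62.1% to 85.3%, counting error alone) and 29.6% of TEpos wells. After thinning, these shares were 63.3% and 4.23%. Lyz2 was found in 66.7% of BEneg and 7.04% of TEpos wells, or 53.3% and 2.82% after thinning. In TEneg, S100a9, Retnlg and Lyz2 were found in 46.4%, 10.1% and 8.70% of wells after thinning. Each of the 3 genes was thus found in a larger share of BEneg than of TEpos or TEneg wells at equal depth. Whether their transcripts in TEpos wells are free RNA or were made there was not tested. In the 20 BEpos wells, which were deeper, S100a9 was found in 17, Tyrobp in 17, Retnlg in 13 and Lyz2 in 9, and after thinning in 14, 8, 7 and 2. Il1b was found in 14 of 20 BEpos and 45 of 60 BEneg wells, and Ccr2 in 5 of 20 and 16 of 60. BEpos came from 1 library, so the populations from blood were not compared by a test.

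The 60 wells fell into 2 main groups that carried different myeloid genes. The first group, 40 wells, was led by Retnlg, S100a9, S100a8, Mmp9, the granule protein Ngp, the histamine-forming enzyme Hdc, the cytokine Il1b, Steap4, Cd9 and Stfa2l1, of which 6 are on the list of mature neutrophil genes, and it is called neutrophil-like. The second, 20 wells, was led by Ccr2, Chi3l3, Plac8, the oxidase subunit Cybb, S100a4, a row named Mir703, Lyz1, Ctsc, Ms4a6c and Lyz2, of which 4 are on the list of classical monocyte genes, and it is called monocyte-like. These genes drew the groups and are given as description without a test. The number of groups was chosen after the data were seen. Of 7 other settings tried for the clustering, the 3 that asked for 2 groups kept the same 40 wells together, and the 4 that asked for more groups kept 30 to 35 of them.

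Neutrophil-like wells numbered 13 of 18, 13 of 18, 6 of 11 and 8 of 13 in libraries 1 to 4, or 66.7% of all wells (95% exact binomial interval 53.3% to 78.3%, counting error alone). The other group numbered 5 wells in each library. Of its 20 wells, 3 held few monocyte genes: wells 5 and 13 of library 2 had 0 and 2 transcripts of the classical monocyte list beside 7 and 11 of the T and NK list, and well 11 of library 3 had 2 monocyte transcripts among 3397. They are counted in the group because the split put them there, and its main genes are also given without them. S100a8 and S100a9 together made up 1.15% to 26.2% of the transcripts of a neutrophil-like well, with a median of 13.8%. In monocyte-like wells they made up 0.0902% to 3.79%, with a median of 0.286%. The ranges overlapped: 5 wells lay between 1% and 4%, and 1 of these, well 22 of library 1, was monocyte-like with 3.79% S100 and 2.68% classical monocyte transcripts, the highest monocyte share of any well. All 40 neutrophil-like wells held more transcripts of the mature neutrophil list than of the monocyte list, and 16 of 20 monocyte-like wells held the reverse. Genes of both lists helped to draw the groups, so these counts describe the groups and are no separate support for their names.

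**Figure D1:**
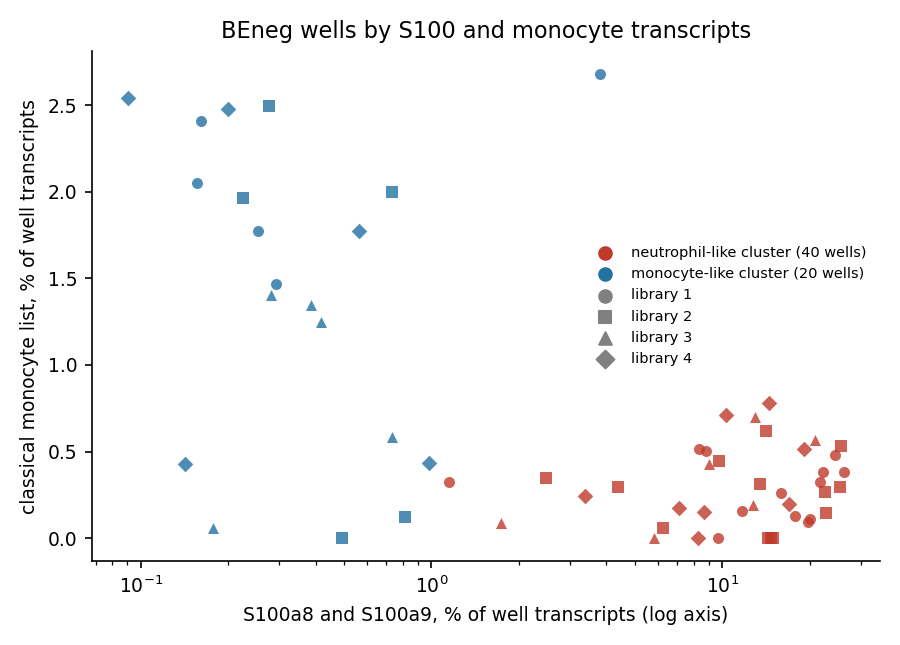
Each point is 1 of the 60 BEneg wells, with the share of its transcripts from S100a8 and S100a9 on the log x axis and from the classical monocyte list on the y axis, in percent; colour gives the group and the marker shape the library. Neutrophil-like wells (median S100 share 13.8%) lie to the right and low, monocyte-like wells (median 0.286%) to the left and high, and wells of every library occur in both.

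The groups also differed in measures that follow depth and RNA content. Monocyte-like wells held a median of 1541 transcripts and neutrophil-like wells 710. Ribosomal protein genes gave 23.7% of transcripts in the first and 8.78% in the second. After thinning to 500 transcripts, the medians were 356.5 and 335.5 genes per well. The part of depth in the grouping was not tested.

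The neutrophil-like wells carried genes of mature blood neutrophils in every library. Within them, S100a9 stood at 829, 778, 476 and 578 per 10000 in libraries 1 to 4 (665 ± 166), against 23.96 ± 6.68 in monocyte-like wells, and the library ranges did not overlap. S100a9 and other genes given here helped to draw the groups, so differences between the groups are a description. Retnlg stood at 142 ± 29.2 against 3.12 ± 2.03. Il1b, the inflammatory cytokine interleukin-1 beta, stood at 43.1 ± 11.9 against 2.95 ± 2.07. The gelatinase gene Mmp9 was found in 31 of 40 wells at 22.3 ± 5.98 and in 1 of 20 monocyte-like wells. Cxcr2, the receptor that draws neutrophils to chemokines, was found in 18 of 40 and 1 of 20. Hdc was found in 22 of 40 and Steap4 in 20 of 40, and both were at 0 in the monocyte-like wells. Slpi, an inhibitor of neutrophil elastase, was found in 35 of 40 wells at 29.8 ± 2.64. Wfdc17, a gene reported in suppressive myeloid cells, stood at 54.0 ± 19.6 against 6.49 ± 3.82. Lcn2 stood at 56.0 ± 7.93 against 8.24 ± 4.31.

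S100a8 and S100a9 encode proteins that pair with each other. In these wells, the ratio of S100a8 to S100a9 transcripts had a median of 0.841 and ran from 0.378 to 2.15 over the 40 wells. The mature neutrophil list as a whole gave 4.18%, 4.34%, 3.52% and 3.66% of their transcripts in libraries 1 to 4, against 0.318% ± 0.0514 in the monocyte-like wells.

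As a group, the monocyte-like wells carried the genes of classical monocytes, and single wells that differed are taken up below. Ccr2 was found in 16 of 20 of these wells, at 21.95, 13.6, 8.22 and 22.7 per 10000. It was found in 0 of 40 neutrophil-like wells, whose median depth was 710 transcripts. Ccr2 helped to draw the groups, so the count of 0 there follows in part from the grouping. That count does not limit the share of cells that express the gene. Plac8 stood at 38.0 ± 14.7 against 2.37 ± 2.96 in neutrophil-like wells. Lyz2 stood at 127 ± 47.5 against 17.7 ± 7.47, and Lyz1 at 258 ± 81.9 against 35.0 ± 6.37. Cybb, the catalytic subunit of the phagocyte oxidase, was found in 15 of 20 wells and 1 of 40. Ms4a6c was found in 14 of 20 and 1 of 40. Ly6c2 was found in 12 of 20 wells and in 9 of 40 neutrophil-like wells, at 38.9, 8.67, 5.48 and 11.3, so library 1 alone was high. The chitinase-like gene Chi3l3 was also uneven, at 17.2, 38.2, 1.37 and 9.45. Csf1r, the receptor for the monocyte growth factor, was found in 12 of 20 and 9 of 40 wells. Without the 3 wells that held few monocyte genes, an alternative chosen after seeing the data, Ccr2 was found in 16 of 17 wells at 19.9 ± 3.32, Plac8 stood at 46.1 ± 11.6, Lyz2 at 159 ± 32.9 and Lyz1 at 317 ± 44.6. S100a9 stood at 24.6 ± 5.96 and Tyrobp at 42.8 ± 9.56 in these 17 wells. Per well, Retnlg and Ccr2 were found together in 6 wells, Retnlg alone in 39, Ccr2 alone in 10 and neither in 5.

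Some genes were carried by both groups at levels that overlapped between libraries. Tyrobp stood at 46.6 ± 8.07 in neutrophil-like and 35.3 ± 13.9 in monocyte-like wells. Cd52, a small surface glycoprotein of leukocytes, stood at 32.8 ± 13.5 and 23.8 ± 9.45. Alox5ap, which feeds leukotriene synthesis, stood at 19.9 ± 3.30 and 18.7 ± 14.9. The translation factor Eef1a1 did not overlap, at 11.3 ± 2.42 and 74.7 ± 9.41.

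**Figure D2:**
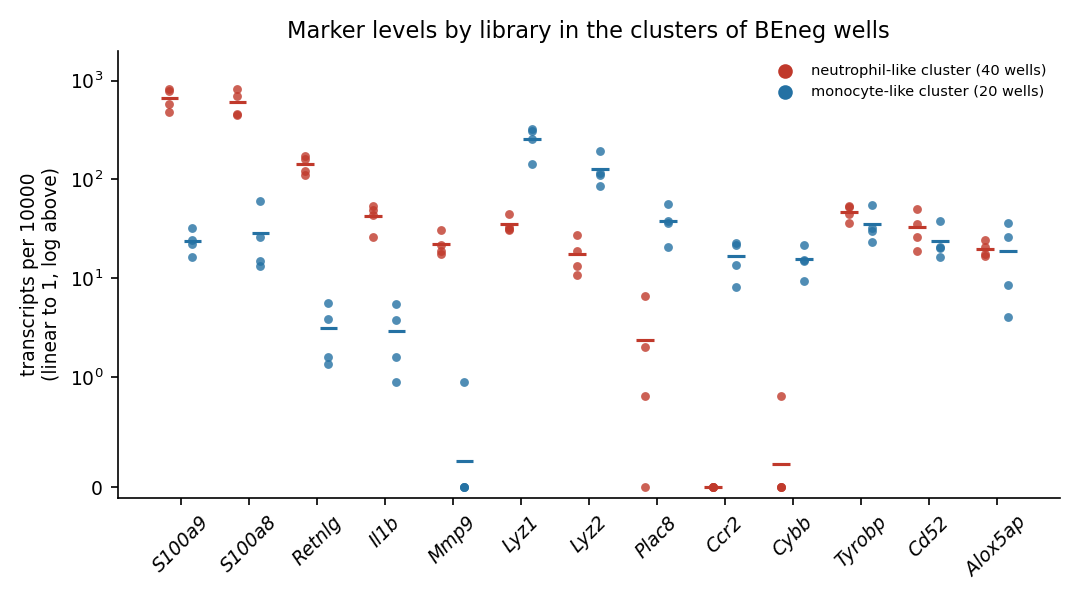
Level of 13 genes, in transcripts per 10000 on an axis that is linear to 1 and logarithmic above, in each of the 4 libraries (points) with the mean (bar), for neutrophil-like wells (red) and monocyte-like wells (blue). S100a9, S100a8, Retnlg, Il1b and Mmp9 are higher in red, Lyz1, Lyz2, Plac8, Ccr2 and Cybb higher in blue, and Tyrobp, Cd52 and Alox5ap overlap.

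Cutting the wells into 5 groups, a choice also made after the data were seen, kept a neutrophil-like group of 30 wells and a monocyte-like group of 17. The remaining 13 wells formed 3 small groups that are left unnamed. One of 3 wells, drawn from the monocyte-like wells, was led by Thy1. Its wells 5 and 13 of library 2 held 4 transcripts each of Thy1, a surface protein of T cells, with 1 and 2 of the T cell receptor component Cd3d. Well 13 also held 2 of the natural killer receptor gene Klrd1. Its other member, well 11 of library 3, held 13 transcripts of Hmgb2, 12 of Ran, 10 of Tuba1b and 4 of Rrm2, genes that run high in dividing cells. That well held 4 transcripts of pan-leukocyte genes, with 0 of the leukocyte genes Coro1a and Rac2. It also held 1 transcript each of the epithelial genes Krt8, Epcam and Cdh1 and of the milk gene Csn3. A group of 5 wells, 4 of them from library 1, was led by Rsad2, Edc4, Ltb, Calcrl and Ifit1. Rsad2 and Ifit1 are interferon-induced, but nearly all their transcripts (4 and 3) came from well 6 of library 1. The last group of 5 was led by Igfbp5, Cd9, Csn3, Rhox8 and Ptchd1 and is taken up below.

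A few single wells stood apart in genes of other myeloid stages. Ngp, a granule protein made by immature neutrophils in the marrow, was found in 5 wells with 46 transcripts, and 32 of these were in well 19 of library 2. That well also held 5 transcripts of the cathelicidin gene Camp, which was at 0 in every other BEneg well, and 35 of Lcn2. Antigen-presentation genes of MHC class II peaked in well 3 of library 3, with 5 transcripts each of H2-Aa and H2-Eb1, and in well 20 of library 1, with 4 and 2. Cx3cr1, a receptor of patrolling monocytes, was highest in well 13 of library 1 with 5 transcripts, beside 3 of Ear2. Ear2 was highest in well 14 of library 4 with 4 transcripts. That well held 5 transcripts of the patrolling monocyte list against 3 of the classical list. Well 19 of library 4 held 7 against 4, and well 18 of library 3 held 5 against 4. All 3 were monocyte-like wells. These wells are single cells, and no comparison rests on them.

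Lists of other blood and tissue cells had few transcripts in the 60 wells together, fewer than the 672 of the classical monocyte list. The patrolling monocyte list had 57, from 7 of 7 measured genes, among them Cx3cr1 (15), Ear2 (13) and Nr4a1 (13). The dendritic and MHC class II list had 54, from 8 of 11 genes, and 20 of these were H2-Aa. The T and NK list had 35, from 10 of 15 genes, led by Thy1 and the chemokine Ccl5 (8 each). Of macrophage genes, C1qa had 1 transcript, and C1qc and Mrc1 had 0, while Apoe, which tumour cells also express, had 48. Of B cell genes, Cd79b had 4, Cd79a 1, Ms4a1 1 and Cd22 0. Platelets and red cells left 2 transcripts of Pf4, 2 of Ppbp, 1 of Bpgm and 0 of Hbb-b1. The endothelial list of 12 measured genes had 13 transcripts in all, and the fibroblast list of 9 measured genes had 8. The gene of the pan-leukocyte antigen CD45, Ptprc, had 1 transcript in BEneg and 0 in TEpos and TEneg, so in this table it does not separate leukocytes from other cells. Of genes reported in suppressive myeloid cells, Wfdc17 had 229 transcripts and Anxa1 118, whereas Arg2 had 7, Nos2 4 and Arg1 2. Arg1 had 50 in TEpos.

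The 36 BEneg wells under 500 transcripts looked like the neutrophil-like wells. Summed, S100a8 and S100a9 gave 9.37% of their 12376 transcripts, the mature neutrophil list 3.36% and the classical monocyte list 0.227%. Of 33 such wells with at least 100 transcripts, 30 held more than 2% S100 transcripts. Ccr2 had 1 transcript among them and Ly6c2 2. The mix of identities moved with the minimum per well: with a minimum of 1000, the mature neutrophil list fell from 2.12% ± 0.491 of BEneg transcripts to 1.19% ± 0.899, and the classical monocyte list stood at 1.18% ± 0.625 in place of 0.882% ± 0.290.

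**Figure D3:**
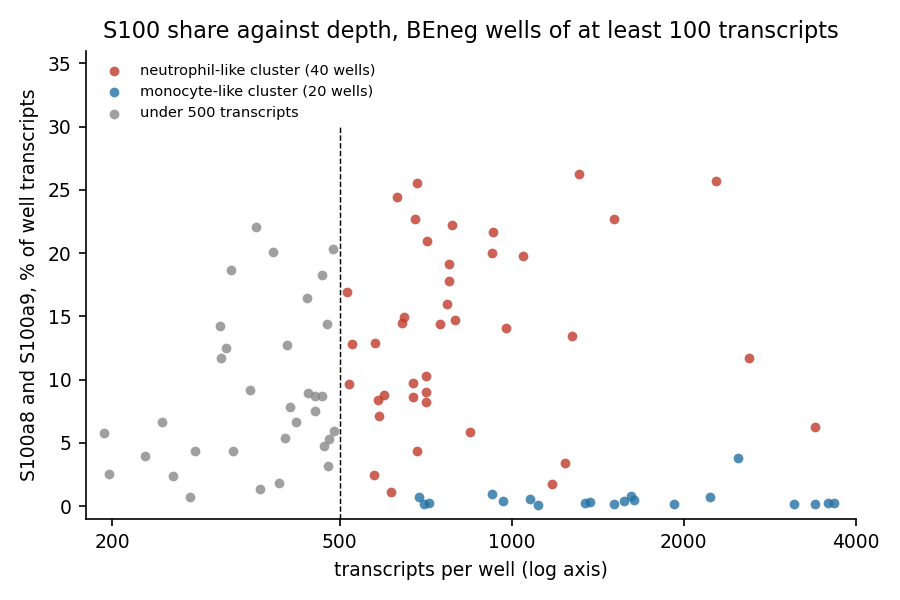
Share of S100a8 and S100a9 in percent (y axis) against transcripts per well (log x axis) for BEneg wells of at least 100 transcripts, with neutrophil-like wells in red, monocyte-like wells in blue and wells under the minimum of 500 (dashed line) in grey. The grey wells spread over the same S100 shares as the red ones, and the blue wells lie among the deeper ones, at a median of 1541 transcripts.

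Transcripts typical of the mammary tumour were found in nearly every BEneg well, in small numbers. The luminal and milk list (22 measured genes, such as the milk casein Csn3, transferrin Trf and the whey acidic protein family member Wfdc18) was found in 56 of 60 wells, at a median of 3 transcripts (0 to 60). It made up a median of 0.342% of a well's transcripts (0% to 1.76%), against 3.46% in TEpos, 1.53% in TEneg and 0.0617% in BEpos. The lowest TEpos well stood at 0.181%, and 17 BEneg wells lay below it. No BEneg well reached the TEpos median, and 8 lay above the lowest TEneg well, at 0.776%. With wells thinned to 500 transcripts, the list was found in 47 of 60 BEneg and 71 of 71 TEpos wells. The epithelial list, with Epcam and the keratins Krt8 and Krt18, was found in 50 of 60 wells at a median of 1 transcript. For this list, 33 BEneg wells lay below the lowest TEpos well, at 0.163%, and 1 lay above the TEpos median of 0.589%. The lowest TEneg well stood at 0%. After thinning, the list was found in 32 of 60 BEneg and 68 of 71 TEpos wells.

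No BEneg well held more transcripts of the luminal, milk and epithelial lists than of the immune lists. The highest ratio, 0.715, was in the dividing-type well 11 of library 3, with 10 tumour-type and 14 immune transcripts. The median ratio was 0.0269. The count was not made in tumour wells, and S100a9, which counts as immune here, was found in 87.3% of TEpos wells. The ratio thus does not by itself tell a leukocyte from a tumour cell. Of 22 measured epithelial genes, 17 had transcripts in BEneg, 106 in all, and of 22 luminal and milk genes, 12 had, with 295 in all. Of these 295, Csn3 gave 103, Trf 87 and Wfdc18 72. The milk gene Csn2, the luminal factors Elf5, Foxa1 and Esr1 and the basal keratin Krt5 had 0. So had Snai2, Twist1 and Cdh2, genes of epithelial-mesenchymal transition.

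**Figure D4:**
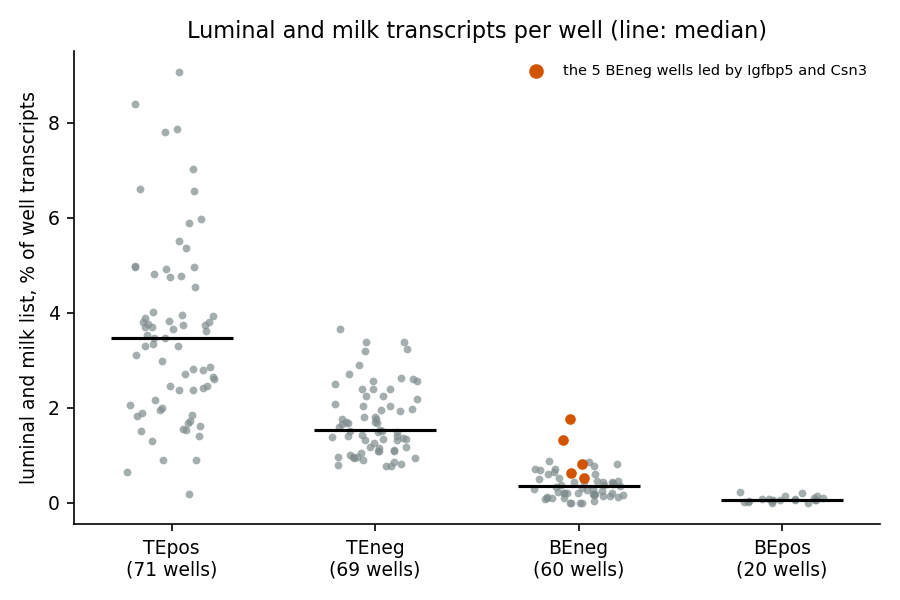
Share of transcripts from the luminal and milk list in each used well, in percent, for the 4 sorted populations, with a bar at the median; orange marks the 5 BEneg wells of the group led by Igfbp5, Cd9 and Csn3. The BEneg median of 0.342% lies between those of TEneg (1.53%) and BEpos (0.0617%), and the highest BEneg wells, at up to 1.76%, are orange.

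Per library, the luminal and milk list gave 0.225%, 0.573%, 0.304% and 0.523% of BEneg transcripts. These shares were 5.13%, 20.2%, 10.3% and 13.6% of those in TEpos of the same library, and every BEneg sum was below the TEneg sum beside it. Within the list, Csn3, Trf and Wfdc18 split as 39.3%, 33.1% and 27.6% in BEneg, as 39.4%, 19.0% and 41.6% in TEpos, and as 41.8%, 25.4% and 32.8% in TEneg. Neutrophil-like wells held a median luminal share of 0.418% and monocyte-like wells 0.208%, with depths of 710 and 1541 transcripts. The wells under 500 transcripts stood at 0.568% in sum. The source of these transcripts was not tested.

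Cdh1, whose protein was the basis of the sort, was found in 20 of 60 BEneg wells with 26 transcripts, although the cells were gated as E-cadherin-negative. Its level was 2.04, 3.96, 5.91 and 3.59 per 10000 in libraries 1 to 4. Epcam, a surface protein of the same epithelial cells, had 14 transcripts, Krt8 10 and Krt18 8. There were thus 1.86 Cdh1 transcripts for each of Epcam in BEneg, against 0.356 in TEpos and 0.564 in TEneg. Cdh1 was called in neither comparison described below: the log2 difference was -0.25 from TEneg (SE 0.45, edgeR adjusted p = 0.706) and -0.24 from TEpos (SE 0.44, edgeR adjusted p = 0.702). This does not show that the levels were alike. The sign against TEneg turned when library 1, library 2 or the well of 61227 transcripts was left out (0.03, 0.08 and 0.15). Cdh1 stood at 5.37 per 10000 in neutrophil-like and 1.69 in monocyte-like wells.

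The group led by Igfbp5, Cd9 and Csn3 consisted largely of the wells of 1 cell barcode. Igfbp5 is a secreted binding protein of insulin-like growth factors that breast epithelium makes. Of the 5 wells, 4 were well 21 of each library, which carries this barcode:
well 21: gctcatcg
The other was well 2 of library 2. That the same well number recurred was noticed after looking over all wells, so it is given without a test. In well 21 the luminal and milk list stood at 0.623%, 1.76%, 0.512% and 1.31% in libraries 1 to 4. Its mean of 1.05% ranked 1 of 24 well numbers, and its ranks within the libraries were 4, 1, 8 and 2. Next came well 12, at 0.938%, whose 4 wells all held under 500 transcripts. Well 21 also ranked 1 in mean depth, with 2601, 3394, 1176 and 1237 transcripts.

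Well 21 held neutrophil and tumour-type genes together. Summed over the 4 libraries, Csn3 stood at 67.6 per 10000 against 7.16 in the other 56 BEneg wells. It stood at 131 in TEpos and 87.6 in TEneg. Igfbp5 stood at 69.6 in well 21 against 4.82 in the other BEneg wells, 44.7 in TEpos and 67.8 in TEneg. Cd9, a tetraspanin, stood at 43.8 against 3.42, and Ptchd1 at 49.8 against 5.29. In the tumour, Cd9 and Ptchd1 stood lower than in well 21, at 5.65 and 7.51 in TEpos and at 6.17 and 8.01 in TEneg. Retnlg stood at 83.9 and S100a9 at 342, below the levels in the other 36 neutrophil-like wells, at 173 and 838. Both were uneven: Retnlg had 25, 42, 2 and 1 transcripts in libraries 1 to 4, and the S100 share was 11.7%, 6.24%, 1.73% and 3.38%. The barcode differs from every barcode of a tumour well in the same library by at least 3 bases, and 3 tumour barcodes lie at that distance. All 24 BEneg barcodes lie 3 bases from their nearest TEneg barcode, so that distance does not set well 21 apart. In the tumour wells at that distance, the highest Csn3 count was 57, 288, 12 and 4 in libraries 1 to 4. Well 21 held 9, 36, 2 and 9. Why 1 well number stood apart was not tested. Without the 5 wells of this group, the luminal and milk share of BEneg was 0.315% in place of 0.406% ± 0.168, and 5 of 55 wells lay above the lowest TEneg well.

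**Figure D5:**
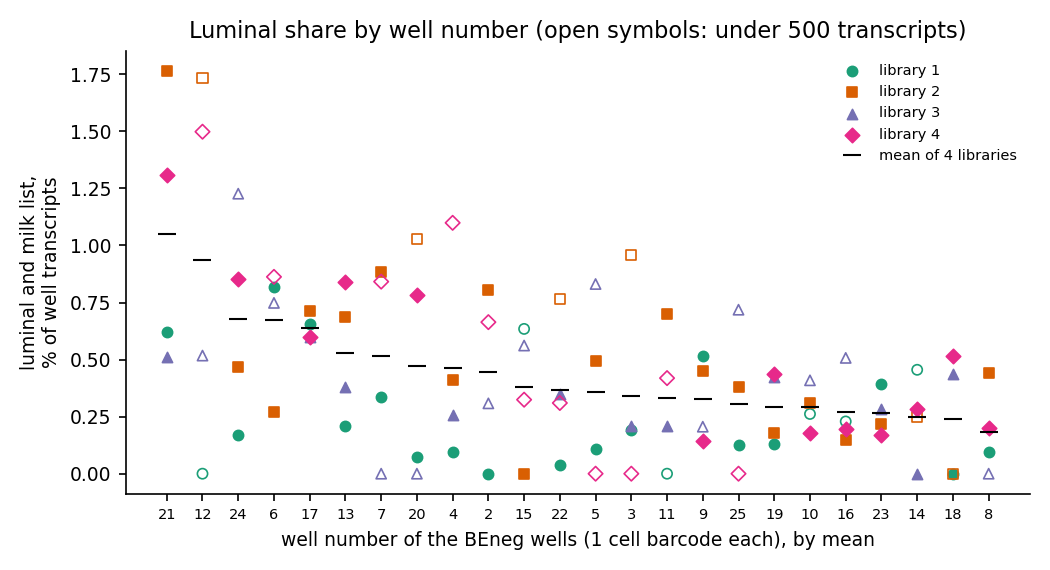
Share of transcripts from the luminal and milk list, in percent, for the 24 BEneg well numbers, ordered by their mean over 4 libraries (black bar); colour and shape give the library, and open symbols are wells under 500 transcripts. Well 21, at the left with a mean of 1.05%, has filled symbols in all 4 libraries, and well 12 beside it, at 0.938%, has open ones.

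BEneg sums were compared with the tumour populations of the same libraries, which asks how E-cadherin-negative cells from blood differ from those of the tumour. The test was edgeR's quasi-likelihood test on transcripts summed per library and population, with the library as a block and adjusted p under 0.05 as the call. Of 490 genes tested, 201 (41.0%) were called against TEneg, 117 (23.9%) higher and 84 (17.1%) lower in BEneg. Against TEpos, 236 (48.2%) were called, 133 (27.1%) higher and 103 (21.0%) lower. The comparisons share the BEneg sums and are not independent. Scaled by total transcripts alone, which moved the median log2 fold change of all genes from -0.05 to -0.49 against TEneg and from -0.08 to -0.48 against TEpos, the split was 99 higher and 187 lower, and 110 higher and 188 lower.

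Genes of phagocytes were far higher in BEneg than in either tumour population, in 4 of 4 libraries. For S100a9, the tumour levels were 14.5, 3.47, 8.26 and 26.8 in TEneg and 10.8, 8.92, 7.98 and 22.7 in TEpos, so the highest tumour sum, 26.8, lay below the lowest BEneg sum. Its log2 fold change was 5.28 against TEneg (SE 0.40, edgeR adjusted p = 2.34e-11) and 5.28 against TEpos (SE 0.38, edgeR adjusted p = 6.84e-12). Retnlg rose by 6.51 against TEneg (SE 0.28, edgeR adjusted p = 1.48e-16) and by 5.997 against TEpos, also on the log2 scale. Lyz2 was at 1.35, 0.274, 4.40 and 1.75 in TEneg and 0.336, 0, 0.332 and 0.731 in TEpos, with log2 fold changes of 5.94 and 8.11. Tyrobp rose by 5.16 and 5.31. These markers were named with the cells, so the sizes describe the cells and add no independent support.

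Of 23 measured genes of the migration and cytokine list, 5 entered the test and 5 were higher in each comparison: Il1b, Ccr2, Ccl6, Selplg and Csf2rb. Over all genes tested, 23.9% were higher than in TEneg and 27.1% higher than in TEpos. The filter on low counts favours genes that are high in at least 1 population, so this count is a description. Other genes named here were among the largest fold changes or the most abundant of their lists; values are log2 fold changes against TEneg and then TEpos. Il1b rose by 6.43 against TEneg and 5.83 against TEpos. Rac2, the blood-cell GTPase of the phagocyte oxidase, rose by 6.13 and 4.85. Alox5ap rose by 6.27 and 6.97. Sfpi1, an older symbol of the gene of PU.1, had log2 fold changes of 4.57 and 6.65. Coro1a, an actin regulator of leukocytes, rose by 5.44 and 5.42, and Srgn, the proteoglycan of granules, by 4.58 and 5.42. Ccr2 had 0 transcripts in both tumour populations, and its level in BEneg was at least 49.2-fold higher than the limit of 3 transcripts over TEneg and at least 51.0-fold higher than that over TEpos. Its call was lost with DESeq2 (adjusted p = 0.106 and 0.0696). Tgfbi was at least 51.8-fold higher than in TEpos, Bin2 at least 37.1-fold higher than in TEpos, and Pygl at least 33.3-fold higher than in TEneg, each with 0 transcripts there. Mmp9 was 111-fold higher than in TEneg (counting interval 29.9 to 933) and 76.9-fold higher than in TEpos (25.5 to 380), from 2 and 3 tumour transcripts.

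By list, the called genes were as follows, where the filter on low counts kept few members and favours those that are high in at least 1 population, so the counts are a description. Of 27 measured mature neutrophil genes, 8 entered the test and 8 were higher in each comparison. Their median log2 fold change was 4.66 against TEneg and 4.24 against TEpos. Of 17 measured classical monocyte genes, 5 entered and 5 were higher in each (medians 4.83 and 6.60). Of 18 shared myeloid genes, 12 entered and 11 were higher in each (5.40 and 5.43). Of 6 genes of the phagocyte oxidase, 3 entered and 3 were higher in each (3.99 and 4.85). Of 15 pan-leukocyte genes, 10 entered and 10 were higher in each. Of the suppressor-associated list, 2 of 10 entered and 2 were higher in each. In the remaining myeloid lists fewer were higher. Of 7 neutrophil granule genes, 2 entered and 2 were lower in each (Ltf and Lcn2). Of 7 patrolling monocyte genes, 1 entered and was not called. Of 6 macrophage genes, 1 entered (Apoe), called higher against TEpos alone. Over all 490 genes tested, 23.9% were higher than in TEneg and 27.1% higher than in TEpos, and the median log2 fold change was -0.05 and -0.08.

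The epithelial and luminal genes that were called were lower in BEneg in 4 of 4 libraries. Csn3 stood at 7.41, 22.3, 5.07 and 19.9 in BEneg. It stood at 56.2, 106, 55.0 and 72.9 in TEneg and at 148, 111, 107 and 178 in TEpos, and no sums overlapped. It fell by 2.24 on the log2 scale against TEneg (SE 0.29, edgeR adjusted p = 3.49e-07) and by 3.05 against TEpos (SE 0.29, edgeR adjusted p = 1.03e-09). Wfdc18 fell by 2.34 and 3.47, Trf by 1.79 and 2.14, Epcam by 1.83 and 2.59, and Krt18 by 2.21 and 2.99. Of 22 measured luminal and milk genes, 4 entered the test and 4 were lower in each comparison, and of 22 epithelial genes, 5 entered and 4 were lower, Cdh1 being the exception. Over all 490 genes tested, 17.1% were lower than in TEneg and 21.0% lower than in TEpos. The filter on low counts favours members that are high in at least 1 population, so these counts are a description. Against TEneg, the basement membrane collagens Col4a1 and Col4a2 fell by 4.41 and 4.16, the smooth muscle actin Acta2 by 4.33, and the matrix protein genes Sparc and Sparcl1 by 3.21 and 3.87. These are genes of mesenchymal, vascular or myoepithelial cells. Against TEpos, Sparcl1 fell by 1.99, and the others were not called, with log2 differences of 0.03 for Col4a1, -0.18 for Col4a2, -0.54 for Acta2 and 0.24 for Sparc.

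Mesenchymal genes did not move as a group. Vim, the intermediate filament of mesenchymal cells and leukocytes, rose by 1.37 against TEneg and 3.85 against TEpos, and S100a4 by 4.41 and 5.73. Sparc, Bgn and Cald1 were lower than in TEneg, and of these Cald1 alone was called lower than in TEpos. Within BEneg, S100a4 stood at 25.2 ± 14.7 in monocyte-like wells and 1.38 ± 1.66 in neutrophil-like wells, and Vim at 31.7 ± 5.55 and 17.9 ± 5.31, so both were carried by wells with myeloid genes. Lcn2 and Ltf, which are granule genes of neutrophils and are also made by mammary epithelium, were lower in BEneg: Lcn2 fell by 1.19 against TEneg and 1.69 against TEpos. Ltf fell by 1.76 and 2.03, and its call against TEneg was lost without library 2 (adjusted p = 0.206), without the well of 61227 transcripts (0.128) and with DESeq2 (0.0588). Against TEpos it was lost without library 1 (0.0586). Of 19 genes of the immediate early response to stress and dissociation, 14 entered the test. Of these, 2 were higher and 2 lower than in TEneg, no more than the share over all genes (23.9% and 17.1%). Against TEpos, 1 was higher and 7 were lower, Fos, Fosb and Jun among the latter, where 27.1% and 21.0% of all genes were.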

How the data were processed

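Single cells were sorted into Trizol and sequenced by CEL-seq, per the labels' protocols. Reads were mapped with BWA 0.6.2-r126 to mm10, per the submitters' processing notes; how reads were counted is not given in the labels. The authors deposited 1 table of estimated counts, with genes in rows and wells in columns. Its values equal 256·ln(256/(256−k)) for whole k (largest distance from a whole number 3.13e-13), the correction for molecular barcodes of which 256 are possible. Each captured molecule is thus counted once, however many PCR copies of it were read. Of 312 wells, 220 held at least 500 transcripts. No pair of used wells held identical values throughout, and BEneg sums of different libraries differed beyond sampling noise (chi-square per degree of freedom 2.09 to 4.35). There were 0 per-sample columns that could not be mapped. No doublet caller was run, since wells were meant to hold 1 cell each.

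For tests, values were summed per library and population for TEpos, TEneg and BEneg, rounded to whole numbers and fitted in edgeR 4.0.16 (R 4.3.3) with filterByExpr, TMM scaling, the library as a block and Benjamini-Hochberg adjustment. The SE is the absolute log2 fold change divided by the square root of F. On simulated sums of the 490 genes, with 200 changed 4-fold, 187 changed genes and 6 others were called. The share of false calls in the real sums, where many fold changes were larger than 4-fold, was not tested. The block was used because the populations were prepared side by side in each library; residuals of sums of the same library correlated at 0.0619 to 0.354. DESeq2 1.42.0, total scaling, other filters and minimums, thinning and leaving out libraries were alternatives. BEneg wells were clustered by Ward's method on 10 principal components of the 300 most variable log genes found in at least 6 wells (Python 3.11.15, NumPy 2.4.6, pandas 2.3.3, SciPy 1.17.1).

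The members, gene lists and markers were chosen with earlier results of these data known. Named genes were the 20 most abundant in BEneg without ribosomal protein genes, the 5 markers, up to 6 members of each list with the most BEneg transcripts and defining members near 0, the 10 called genes with the largest fold change each way, Cdh1, Ptprc, and the top 10 genes by fold of each group of wells. A few other genes (Igfbp5, Ptchd1, Hmgb2, Ran and Tuba1b among them) were named after their values were seen. Near-identical copies, such as Lyz1 with Lyz2 and ribosomal protein genes with their pseudogenes, are uncertain. Intervals and limits cover counting error only.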

Additional observations from a re-analysis of the deposited data

Results flagged for a closer look

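In 11 of 68 sets of 4 library values, 1 library lay farther from the others than the 95% critical value of Dixon's test allows. Chance alone gives about 1 in 20 such sets. Library 4 was high for Lyz2 (108 per 10000), for the patrolling monocyte list (0.180% of BEneg transcripts) and for the basal list (0.0538%). Library 1 was high for Cd52 (43.9 per 10000), Ly6c2 (23.4), Plac8 (29.2) and Vim (28.6), as well as for the B cell list (0.0245%) and the erythroid list (0.00408%), which rest on 6 transcripts and 1. Library 1 was low for Sparc (1.22 per 10000), and library 3 was low for Coro1a (5.06). No cause was tested.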

How the results depend on the processing

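The direction of the named genes depended little on the settings, and the counts of called genes changed with the minimum depth. Testing every gene with at least 10 transcripts gave 614 called genes against TEneg and 764 against TEpos, of 6167 tested. A minimum of 1000 transcripts per well gave 111 and 125 of 375, and thinning wells to 500 gave 63 and 68 of 160; fewer genes were tested in both. DESeq2 gave 173 and 201. Leaving out 1 library at a time gave 168 to 223 and 193 to 258. The fit without the replicate block gave 187 and 213. Among the results for named genes under the alternatives, 1062 kept direction and side of the threshold, 7 missed the threshold and 3 reversed, all 3 for Cdh1 against TEneg (log2 fold change -0.52 to 0.079 over fits without 1 replicate each, 0.03 without replicate 1, 0.079 without replicate 2, and 0.15 without the largest well). No call of a named gene was lost without the block. The mature neutrophil share was 1.19% at a minimum of 1000 and 2.77% as a mean over wells, and the classical monocyte share 1.18% at that minimum. Leaving out 1 library gave 1.93% to 2.33% for the first, 0.774% to 1.0005% for the second, 0.351% to 0.467% for the luminal and milk list, and 0.145% to 0.172% for the epithelial list. The group with the highest S100a9 held 30 to 40 wells over 8 settings. Leaving out the 5 wells led by Igfbp5 and Csn3, or well 21, alternatives chosen after seeing the data, gave 202 and 203 called genes against TEneg and 216 and 218 against TEpos. At a median of 819 transcripts per well, a gene with 0 transcripts in a well says little about that cell.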
